A study of Mus musculus with 18 samples.

Results

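The lumen of the endoplasmic reticulum (ER) holds a chaperone system built around BiP, and the transcripts of this system were read here in mouse embryonic fibroblasts. The set comprised 10 genes chosen by name: Hspa5, Hsp90b1, Hyou1, Calr, Canx, Dnajb9, Dnajb11, Dnajc3, Sdf2l1 and Manf. Each was found on 1 locus of the 51499 loci in the deposited table, and 10 of 10 had a mean level over the 6 groups of at least 1 FPKM (fragments per kilobase of transcript, scaled to the mapped fragments of the library), a filter that 11929 loci passed. FPKM is scaled for transcript length, so levels of different genes can be set side by side.

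BiP, the product of Hspa5, is an Hsp70 chaperone that binds exposed hydrophobic stretches of newly imported proteins in an ATP-driven cycle. J-domain cochaperones bring clients to it and start ATP hydrolysis, while a nucleotide exchange factor restarts the cycle. GRP94 and the lectin chaperones calnexin and calreticulin fold further clients, the lectins by reading a glucose on the N-glycan. When unfolded proteins accumulate, the unfolded protein response raises transcription of many of these genes, through ATF6 and spliced XBP1 acting at ER stress elements in their promoters.

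The sequenced RNA came as 18 libraries, in 6 groups of 3. Embryonic fibroblasts labelled Ago2+/+ (titled DCR1, for a reason not given in the sources used here) or Ago2-/-, a genotype without the RNA interference endonuclease AGO2, had grown for 3 days before they received the solvent DMSO, tunicamycin or 500 nM thapsigargin. Tunicamycin blocks N-glycosylation and thapsigargin empties ER calcium by inhibiting the SERCA pump. Nothing in the labels says whether the 3 libraries of a group came from separate cultures, and the methods name the fibroblasts by genotype without saying how they were derived. The methods also speak of untreated controls where the labels say DMSO.

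The table holds a single FPKM per group, so no spread between replicates could be given. The submitters' own test statistics and p-values were not used, and no test was made here. Neighbouring groups in any order below cannot be said to differ beyond their spread. A gene is called higher or lower where the ratio of FPKM + 0.1 between groups reached 1.5-fold, which is 0.585 on the log2 scale. In 4 of the 18 libraries the labels disagree on genotype, and these stayed in the group of their title. The level of Ago2 itself did not follow the labels throughout, being lower with the Ago2-/- label only under DMSO. It was 22.1, 5.75 and 17.0 FPKM (DMSO, tunicamycin, thapsigargin) with the Ago2+/+ label, and 5.61, 15.5 and 20.7 FPKM with the Ago2-/- label. Groups are therefore named as labelled, and a ratio below compares 2 groups by their labels. Over all loci the 6 groups fell into 3 close pairs, with Spearman correlations of 0.977 to 0.985 within pairs against 0.876 to 0.906 for the other group pairs. The group labelled Ago2-/- under DMSO lay next to the group labelled Ago2+/+ under tunicamycin, Ago2-/- under tunicamycin next to Ago2+/+ under thapsigargin, and Ago2-/- under thapsigargin next to Ago2+/+ under DMSO. The pairs thus cross the labels of both genotype and treatment, and whether labels were exchanged was not tested. Of 10 fibroblast markers, 8 reached 1 FPKM in some group, with a summed level of 2432 to 3630 FPKM. Most of this sum was Vim and the locus of S100a4 (shared with S100a3), except in the group labelled Ago2-/- under tunicamycin. There they stood at 952 and 330 FPKM, beside Col1a1 at 651 and Col1a2 at 577 FPKM. Single markers varied far more, Col1a1 from 5.97 to 651 FPKM and Pdgfrb from 0.540 to 17.9 FPKM, and Thy1 was listed at 0 in all 6 groups. Summed epithelial, leukocyte and endothelial markers were at most 1.33, 1.93 and 0.449 FPKM. The 4 contractile markers summed to 2052 FPKM in the group labelled Ago2-/- under tunicamycin and 2729 FPKM in that labelled Ago2+/+ under thapsigargin, against 2.38 to 6.50 FPKM in the other 4 groups, and their part in the levels below was not tested. In such bulk RNA, fewer cells of a type and less RNA per cell cannot be told apart.

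The promoters are shown because these genes are textbook targets of ER stress elements, and because members with and without an element can then be set beside their levels. RefSeq promoters of build GRCm38.p6, from 250 bases before to 50 after the start, were matched by symbol for 8 of 10 members, and no entry was used for Hyou1 and Manf. Both strands were searched for the ER stress element (ERSE, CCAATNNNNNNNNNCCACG), for ERSE-II (ATTGGNCCACG), which shares its last 5 letters with the ERSE, and for the UPRE core (TGACGTGG or TGACGTGA). Capitals mark the matches, and the sequences run 5′ to 3′ along the gene.
Hspa5, chr2:34771840-34772089, plus strand: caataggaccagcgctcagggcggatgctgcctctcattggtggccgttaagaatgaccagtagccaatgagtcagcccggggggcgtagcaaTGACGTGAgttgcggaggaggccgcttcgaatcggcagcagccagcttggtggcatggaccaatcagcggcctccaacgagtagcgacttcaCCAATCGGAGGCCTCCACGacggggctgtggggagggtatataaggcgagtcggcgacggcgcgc
Hsp90b1, chr10:86705503-86705686, minus strand: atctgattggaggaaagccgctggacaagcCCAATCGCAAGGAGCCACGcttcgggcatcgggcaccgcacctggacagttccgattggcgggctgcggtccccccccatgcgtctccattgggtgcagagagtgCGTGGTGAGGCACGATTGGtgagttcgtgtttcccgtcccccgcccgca
Calr, chr8:84847045-84847123, minus strand: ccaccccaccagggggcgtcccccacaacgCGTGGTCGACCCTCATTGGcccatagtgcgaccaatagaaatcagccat
Canx, chr11:50325770-50325848, minus strand: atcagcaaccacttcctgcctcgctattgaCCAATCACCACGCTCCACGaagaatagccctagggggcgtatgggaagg
Dnajc3, chr14:118937682-118937931, plus strand: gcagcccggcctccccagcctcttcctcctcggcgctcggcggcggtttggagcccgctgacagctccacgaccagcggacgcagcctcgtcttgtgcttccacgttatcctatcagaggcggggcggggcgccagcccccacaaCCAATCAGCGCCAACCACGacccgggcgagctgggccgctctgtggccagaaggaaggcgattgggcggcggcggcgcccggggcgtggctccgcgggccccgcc
Dnajb11, chr16:22857842-22857871, plus strand: cccggcggcgATTGGCCCACGcctggctgc
Dnajb9, chr12:44210069-44210318, minus strand: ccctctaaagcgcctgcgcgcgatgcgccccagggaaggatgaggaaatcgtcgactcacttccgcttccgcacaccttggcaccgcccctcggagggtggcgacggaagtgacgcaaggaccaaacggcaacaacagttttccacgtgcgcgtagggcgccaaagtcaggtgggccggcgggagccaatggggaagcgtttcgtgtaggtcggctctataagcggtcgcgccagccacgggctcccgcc

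An ERSE was present in 5 of the 8 promoters (62.5%), those of Hspa5, Hsp90b1, Calr, Canx and Dnajc3, against 39 of all 32851 promoters (0.119%). The element was originally defined on promoters of this family, so its presence there is no independent result. Hsp90b1 held 2 copies, on opposite strands, starting 212 and 107 bases before the start, and the match of Calr lay on the reverse strand. The ERSE of Hspa5 started 65 bases before the start, that of Dnajc3 105 bases before it and that of Canx 145 bases before it. Dnajb11 held an ERSE-II from 8 to 18 bases into the transcribed part, an element found in 0.0365% of promoters. Hspa5 also held 1 UPRE core, which 1.12% of promoters held. No exact element lay in the windows of Dnajb9 and Sdf2l1, nor did a looser ERSE with 1 mismatch in its last 5 letters, tried after the exact matches were seen and held by 0.998% of promoters, add a member.

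Hspa5 (chromosome 2, 34771970 to 34777547, plus strand, GRCm38 as are all loci here) encodes BiP. With the Ago2+/+ label it stood at 4808 FPKM under DMSO, 6746 FPKM under tunicamycin and 5367 FPKM under thapsigargin, and with the Ago2-/- label at 7682, 5155 and 3677 FPKM. Values of the other genes are given in this order of treatments. Its highest and lowest groups thus carried the same label of genotype, and differed 2.09-fold. It ranked between 2 and 6 among all loci by FPKM in every group and made up 43.4% to 60.6% of the summed FPKM of the 10 genes. Its highest and second highest groups formed the close pair of Ago2-/- under DMSO and Ago2+/+ under tunicamycin, in which 0 of the other 9 members had their highest level.

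Hyou1 (chromosome 9, 44379490 to 44392369, plus strand) encodes GRP170, the large Hsp70-like protein that exchanges nucleotide on BiP. It was at 228, 294 and 363 FPKM with the Ago2+/+ label and 274, 368 and 140 FPKM with the Ago2-/- label. The low value under thapsigargin in the group labelled Ago2-/- stood apart, 1.64-fold below the next group. Per 100 units of Hspa5 FPKM there were 3.57 to 7.15 of Hyou1.

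Of the 3 J-domain cochaperones, 2 spanned the widest ranges of the set. Dnajc3 (chromosome 14, 118937976 to 118981697, plus strand) encodes P58IPK, which hands clients to BiP. It was at 45.7, 71.1 and 110 FPKM with the Ago2+/+ label and 67.2, 118 and 21.5 FPKM with the Ago2-/- label, a 5.48-fold range. Both treated groups labelled Ago2+/+ lay above their DMSO group, whereas in those labelled Ago2-/- the stressors lay on opposite sides of DMSO.

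Dnajb9 (chromosome 12, 44205559 to 44210373, minus strand) encodes ERdj4, which recruits BiP to the lumenal part of the stress sensor IRE1. It had the lowest mean level of the set, with 9.86, 28.2 and 31.4 FPKM with the Ago2+/+ label and 29.0, 35.7 and 9.05 FPKM with the Ago2-/- label. The groups split into 4 at 28.2 FPKM or more and 2 below 10 FPKM, the latter being the close pair of Ago2-/- under thapsigargin and Ago2+/+ under DMSO, with a 2.86-fold step between. Dnajb11 (chromosome 16, 22857845 to 22879634, plus strand) encodes ERdj3, a soluble J protein that binds clients directly. Its 156, 126 and 160 FPKM with the Ago2+/+ label and 120, 168 and 117 FPKM with the Ago2-/- label spanned 1.43-fold.

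Sdf2l1 (chromosome 16, 17130138 to 17132383, minus strand) encodes a lumenal partner of ERdj3 that keeps clients from aggregating. It was at 164, 211 and 223 FPKM with the Ago2+/+ label and 190, 229 and 96.4 FPKM with the Ago2-/- label. Manf encodes a lumenal and secreted protein that binds BiP and slows its nucleotide exchange. Its locus (chromosome 9, 106821874 to 107231909) is shared with Rbm15b, so its 732, 841 and 986 FPKM with the Ago2+/+ label and 797, 1033 and 628 FPKM with the Ago2-/- label may hold reads of that gene. Hyou1, Dnajc3, Sdf2l1 and Manf put the 6 groups in the same order, from Ago2-/- under tunicamycin through Ago2+/+ under thapsigargin, Ago2+/+ under tunicamycin, Ago2-/- under DMSO and Ago2+/+ under DMSO to Ago2-/- under thapsigargin. Dnajb9 differed from this order only in that Ago2-/- under DMSO stood above Ago2+/+ under tunicamycin, by 1.03-fold.

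The GRP94 gene and the lectin chaperones varied least. Hsp90b1 (chromosome 10, 86685525 to 86705509, minus strand), whose locus also carries the names Gm25745 and Gm15344 and reaches beyond the gene (86690209 to 86705509), encodes GRP94, the Hsp90 of the ER. It was at 2063, 1623 and 1990 FPKM with the Ago2+/+ label and 1639, 1998 and 1837 FPKM with the Ago2-/- label, a 1.27-fold range. Calr (chromosome 8, 84841850 to 84846934, minus strand), for calreticulin, had 1871, 1580 and 1691 FPKM and 1546, 1681 and 1575 FPKM. Canx (chromosome 11, 50293961 to 50325673, minus strand), for the membrane-bound calnexin, had 372, 323 and 391 FPKM and 334, 377 and 369 FPKM. Each of the lectins spanned 1.21-fold. The ERSE was thus present both in these 3 members of narrow range and in Dnajc3 and Hspa5, while Dnajb9, with the second widest range, had none in its window.

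**Figure D1:**
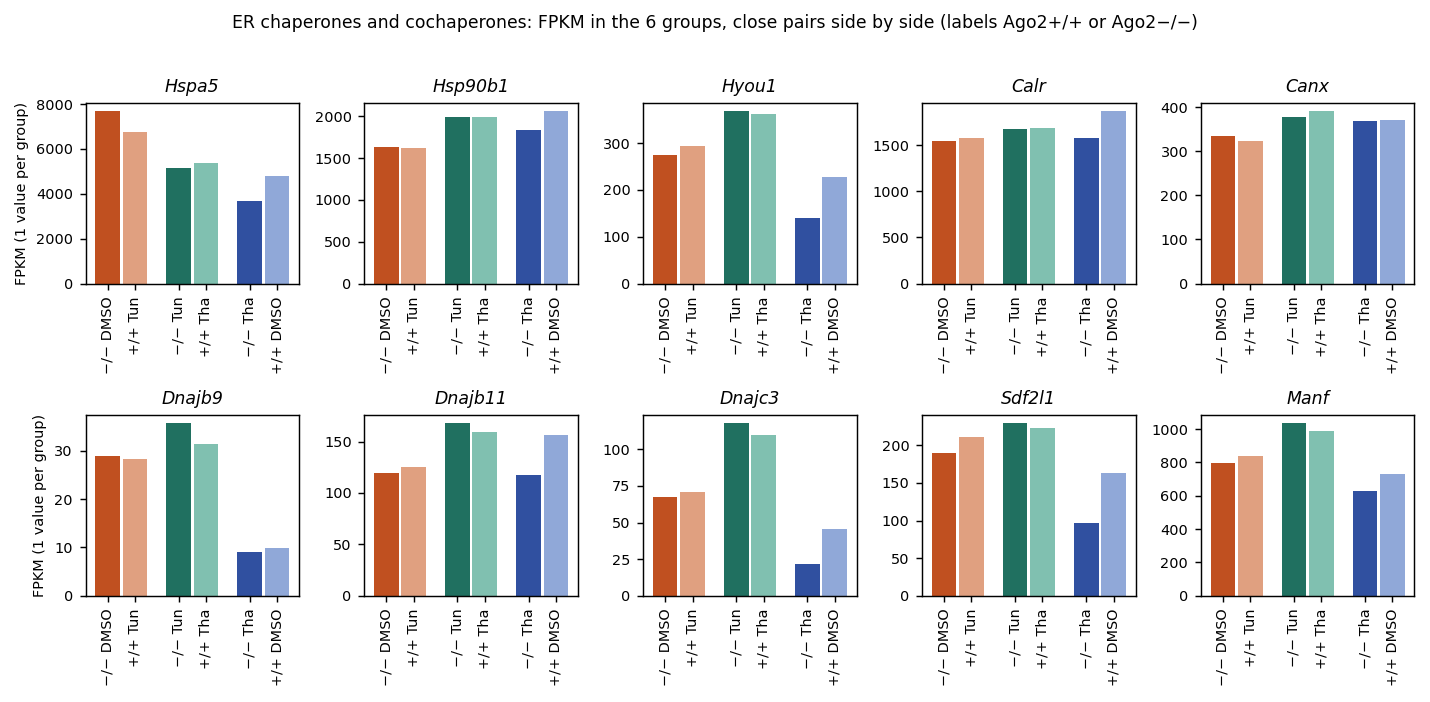
Bars give the FPKM of each member (1 pooled value per group, so no error bar; each panel has its own axis from 0) in the 6 groups, ordered so that the close pairs stand side by side; +/+ and −/− are the labelled Ago2 genotypes, Tun is tunicamycin and Tha thapsigargin. Paired bars are near each other except in the blue pair, where Hyou1, Dnajc3 and Sdf2l1 are at least 1.63-fold lower in the group labelled Ago2-/- under thapsigargin.

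**Figure D2:**
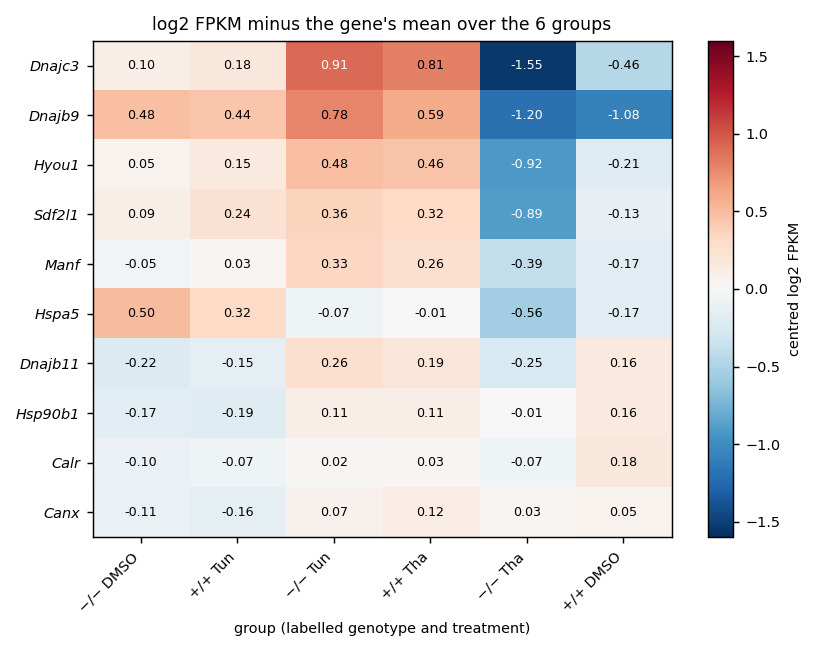
Colours and printed values give, for each member (rows) and group (columns, in close pairs), log2 FPKM minus the gene's own mean over the 6 groups. Dnajc3 runs from -1.55 to 0.91 while Canx stays between -0.16 and 0.12, and Hspa5 alone among the 10 has its highest value in the group labelled Ago2-/- under DMSO.

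The first comparison was of each stressor with DMSO within a labelled genotype, which asks whether the chaperone transcripts responded to ER stress. Under tunicamycin in the groups labelled Ago2+/+, 2 of 10 members were higher, Dnajb9 by 2.85-fold and Dnajc3 by 1.56-fold, and 0 were lower, where 17.2% of all loci were higher and 16.2% lower. Hspa5 was 1.40-fold higher, short of the call. Hsp90b1, Calr, Canx and Dnajb11 lay below DMSO, with log2 ratios of -0.35, -0.24, -0.20 and -0.32. The members' median log2 ratio was 0.28 against 0.01 for all loci.

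Under thapsigargin in the groups labelled Ago2+/+, 3 members were higher, Dnajb9 by 3.16-fold, Dnajc3 by 2.40-fold and Hyou1 by 1.59-fold, and 0 were lower, where 16.7% of loci were higher and 15.2% lower. Sdf2l1 and Manf were 1.36-fold and 1.35-fold higher, and Hspa5 1.12-fold higher. The median was 0.30 on the log2 scale. For both stressors the share of members called higher, 2 and 3 of 10, was near that of all loci, given the small number of members.

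In the groups labelled Ago2-/-, tunicamycin left 1 member higher, Dnajc3 by 1.75-fold, and 0 lower, where 21.4% of loci were higher and 19.8% lower. Of the other 9 members, 8 lay above DMSO with log2 ratios of 0.12 to 0.49, whereas Hspa5 had a log2 ratio of -0.58, a 1.49-fold lower level just short of the call, which upper quartile scaling took past it (-0.59). Under thapsigargin 5 of 10 members were lower and 0 higher, where 19.1% of loci were lower and 16.7% higher. These were Dnajb9 (3.18-fold lower), Dnajc3 (3.12-fold), Hspa5 (2.09-fold), Sdf2l1 (1.97-fold) and Hyou1 (1.96-fold). Calr, Canx, Hsp90b1 and Dnajb11 stayed between -0.03 and 0.17 on the log2 scale.

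Between thapsigargin and DMSO as labelled, 3 of 10 members had opposite directions by labelled genotype with both ratios past 1.5-fold, as did 12.6% of all loci. The log2 ratio of Dnajb9 was 1.66 in the groups labelled Ago2+/+ and -1.67 in those labelled Ago2-/-, that of Dnajc3 1.26 and -1.64, and that of Hyou1 0.67 and -0.97. Of the groups compared, that labelled Ago2-/- under thapsigargin and that labelled Ago2+/+ under DMSO form a close pair. For tunicamycin 0 members had opposite directions with both ratios past 1.5-fold, as against 18.6% of loci. The largest difference there was in Dnajb9, at 1.51 and 0.30, followed by Hspa5 at 0.49 and -0.58.

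**Figure D3:**
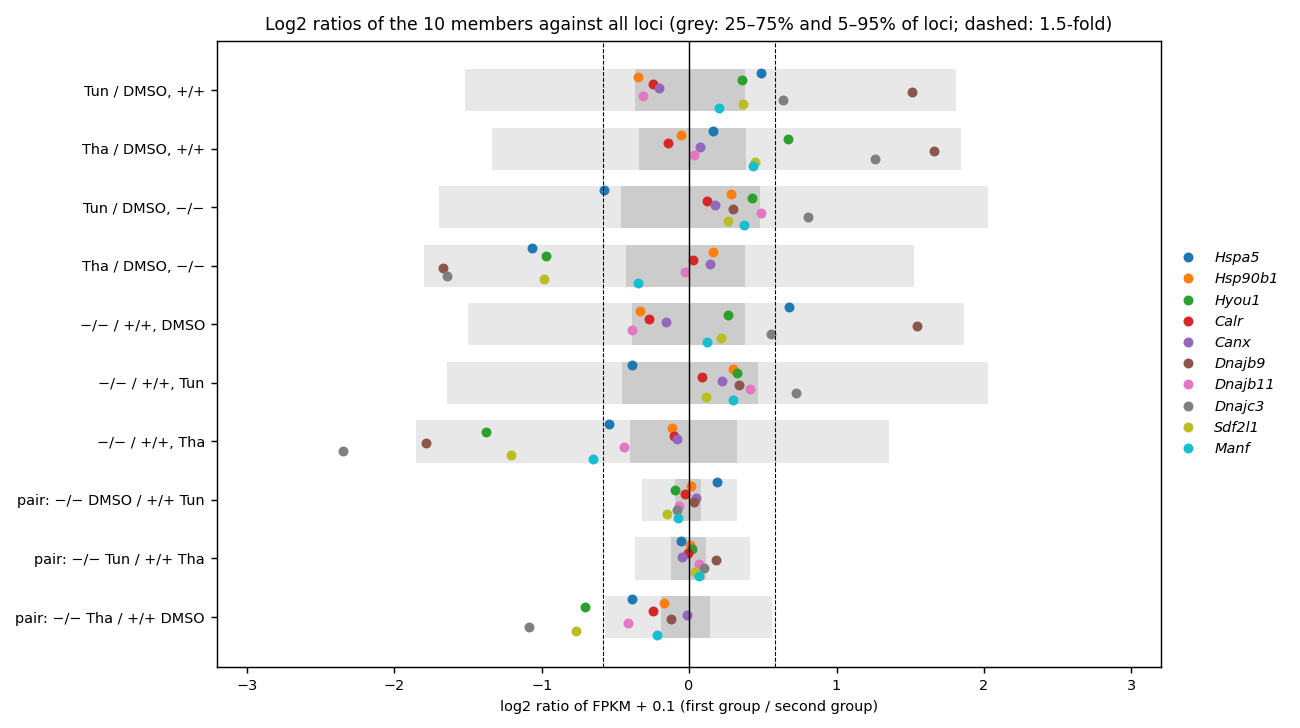
Points give the log2 ratio of FPKM + 0.1 for each member in the 10 comparisons (rows; first group over second), on grey bars that hold the central 50% and 90% of the 11929 loci; dashed lines mark 1.5-fold. Hspa5, Hyou1, Dnajc3 and Sdf2l1 lie left of the central 50% in every row with the group labelled Ago2-/- under thapsigargin as the first group. In the other close pairs the members lie close to 0.

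The second comparison was of the labelled genotypes under the same treatment. Under DMSO 2 members were higher in the group labelled Ago2-/-, Dnajb9 by 2.92-fold and Hspa5 by 1.60-fold, and 0 were lower, where 17.2% of loci were higher and 16.7% lower. Dnajc3 was 1.47-fold higher, and Dnajb11, Hsp90b1, Calr and Canx had log2 ratios of -0.39 to -0.16. Under tunicamycin 1 member was higher, Dnajc3 by 1.65-fold, and 0 were lower, where 20.7% of loci were higher and 19.4% lower. Hspa5 was the only member below 0 there, at a log2 ratio of -0.39.

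Under thapsigargin 10 of 10 members had a lower FPKM in the group labelled Ago2-/-, while 52.2% of all loci did. Of these, 5 passed 1.5-fold and 0 were higher, where 17.7% of loci were lower and 14.9% higher. Dnajc3 was 5.09-fold lower, beyond 93.9% of loci by size. Dnajb9 was 3.44-fold lower, Hyou1 2.60-fold, Sdf2l1 2.31-fold and Manf 1.57-fold, the last no longer called under upper quartile scaling (log2 ratio -0.57). Canx, Calr and Hsp90b1 were nearest to 0, at -0.09, -0.10 and -0.12 on the log2 scale. The contractile markers summed to 6.50 FPKM in the group labelled Ago2-/- and 2729 FPKM in the group labelled Ago2+/+ under thapsigargin, all 4 of them lower in the former. Their part in the difference was not tested.

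The close pairs give comparisons in which most of the transcriptome was alike. Between Ago2-/- under DMSO and Ago2+/+ under tunicamycin 0 members were called, where 2.0% of loci were higher and 1.40% lower, and the log2 ratios ran from -0.15 (Sdf2l1) to 0.19 (Hspa5). Between Ago2-/- under tunicamycin and Ago2+/+ under thapsigargin 0 were called as well, where 2.51% of loci were higher and 1.88% lower, and the range was -0.06 (Hspa5) to 0.19 (Dnajb9). The members' median absolute log2 ratio was 0.08 and 0.05 in these pairs, against 0.09 and 0.12 for all loci. The contractile markers were high in both groups of the second pair.

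Between Ago2-/- under thapsigargin and Ago2+/+ under DMSO the members lay further apart. All 10 were lower in the former, where 53.2% of loci were, and 3 of 10 passed 1.5-fold downward with 0 upward, against 4.67% of loci lower and 4.63% higher. Dnajc3 was 2.12-fold lower and further from 0 than 97.0% of loci, Sdf2l1 was 1.70-fold lower (94.1%) and Hyou1 1.63-fold lower (93.4%). Dnajb11, Hspa5, Calr, Manf and Hsp90b1 had log2 ratios of -0.42, -0.39, -0.25, -0.22 and -0.17. Dnajb9 and Canx were nearest to 0, at -0.12 and -0.01. The median absolute log2 ratio was 0.32 for the members and 0.17 for all loci. Ago2 was at 20.7 and 22.1 FPKM in this pair, and the summed contractile markers at 6.50 and 3.94 FPKM. The comparisons share groups, the group labelled Ago2-/- under thapsigargin standing in 3 of the 10, so its low values enter each of these.

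Summed over the 10 genes, the level was 10448, 11842 and 11311 FPKM with the Ago2+/+ label and 12678, 11163 and 8469 FPKM with the Ago2-/- label. As a share of the FPKM of all loci this was 1.84% in each group labelled Ago2+/+, and 2.0%, 1.99% and 1.45% in those labelled Ago2-/-. Without Hspa5 the sum stood between 4792 and 6007 FPKM. The balance between the transcripts of Hspa5 and of the other members moved more than the sum. Hspa5 exceeded Hsp90b1 by 2.0-fold to 4.69-fold and Calr by 2.33-fold to 4.97-fold. These ratios were highest in the close pair of Ago2-/- under DMSO and Ago2+/+ under tunicamycin. Against the J protein gene Dnajb11 the highest ratios lay in the same close pair, at 64.3-fold and 53.7-fold. Against Dnajc3 and Dnajb9 the order differed. Hspa5 exceeded Dnajc3 by 43.8-fold in the group labelled Ago2-/- under tunicamycin and by 171-fold in that under thapsigargin. It exceeded Dnajb9 most, by 488-fold, in the group labelled Ago2+/+ under DMSO.

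**Figure D4:**
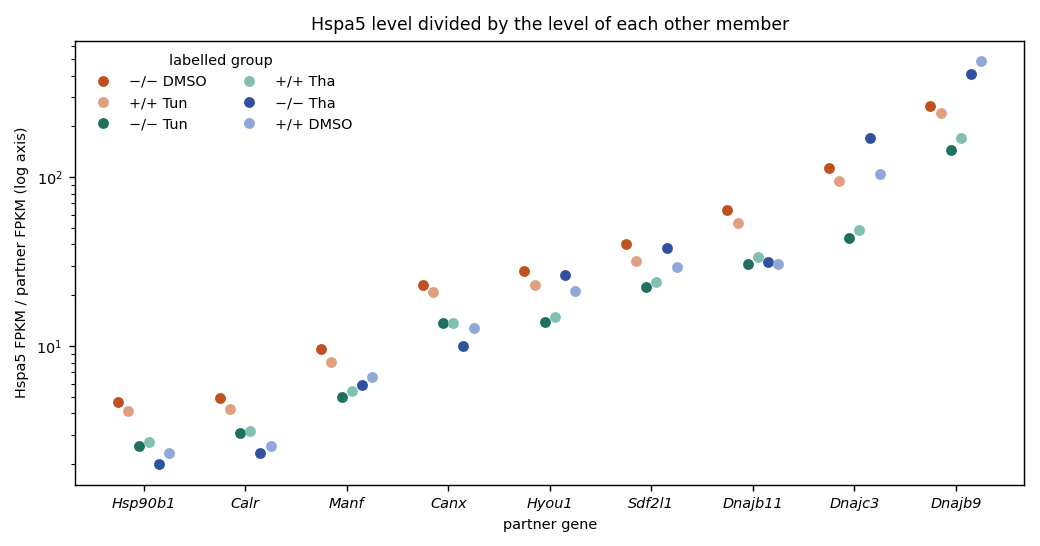
Points give the FPKM of Hspa5 divided by that of each other member (log axis) in the 6 groups, coloured by close pair. For Hsp90b1, Calr, Manf, Canx, Hyou1, Sdf2l1 and Dnajb11 the ratio is highest in the group labelled Ago2-/- under DMSO, for Dnajc3 in that labelled Ago2-/- under thapsigargin (171) and for Dnajb9 in that labelled Ago2+/+ under DMSO (488).

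Other folding genes of the ER were read in the same way from a list of 37 genes, disulfide isomerases, prolyl isomerases, calcium-binding and glucosyltransferase proteins among them, of which 35 passed the filter. Against DMSO with the Ago2+/+ label, 5 were higher and 3 lower under tunicamycin, where 17.2% and 16.2% of all loci were, and 15 higher and 0 lower under thapsigargin, where 16.7% and 15.2% of loci were. With the Ago2-/- label, 17 were higher and 1 lower under tunicamycin, against 21.4% and 19.8% of loci, and 2 higher and 9 lower under thapsigargin, against 16.7% and 19.1%. The 2 larger counts of higher genes fell on the groups in which the contractile markers were high, whose part was not tested. Between labelled genotypes, 4 were higher and 3 lower under DMSO (17.2% and 16.7% of loci), and 17 higher and 0 lower under tunicamycin (20.7% and 19.4%). Under thapsigargin, 21 of 35 were lower and 1 higher in the group labelled Ago2-/- than in that labelled Ago2+/+ (17.7% and 14.9% of loci), with a median log2 ratio of -0.74 against -0.03 for all loci. The lowest were the prolyl isomerase gene Fkbp14 (17.7 FPKM with the Ago2+/+ label and 1.39 FPKM with the Ago2-/- label) and Creld1 (19.9 and 2.57 FPKM), and the highest were the oxidase gene Ero1l (51.7 and 84.7 FPKM) and Uggt1 (51.6 and 75.7 FPKM), the glucosyltransferase that returns misfolded glycoproteins to the lectin chaperones. In the close pair of Ago2-/- under thapsigargin and Ago2+/+ under DMSO, 5 of 35 were lower and 1 higher, against 4.67% and 4.63% of loci. Creld2 was lowest there (102 and 211 FPKM), followed by Nucb2 (12.3 and 23.7 FPKM), and Creld1 was the gene called higher (2.57 and 0.909 FPKM). In both other close pairs 0 of 35 were called, where 2.0% and 2.51% of loci were higher and 1.40% and 1.88% lower. Ero1l was just short of a call in the first of these pairs, at 0.58 on the log2 scale.

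Of 24 genes for sensors, factors and degradation proteins of the unfolded protein response, 23 passed the filter. Against DMSO with the Ago2+/+ label, 4 of 23 were higher and 1 lower under tunicamycin (17.2% and 16.2% of loci), and 5 higher and 1 lower under thapsigargin (16.7% and 15.2%), so the shares called higher were near those of all loci. With the Ago2-/- label, 4 were higher and 2 lower under tunicamycin (21.4% and 19.8% of loci), and 1 higher and 8 lower under thapsigargin (16.7% and 19.1%). Between labelled genotypes, 4 were higher and 1 lower under DMSO (17.2% and 16.7%), and 5 higher and 2 lower under tunicamycin (20.7% and 19.4%). Under thapsigargin 7 of 23 were lower and 1 higher (17.7% and 14.9% of loci), at a median log2 ratio of -0.31. The lowest were Creb3l2 (20.8 FPKM in the group labelled Ago2+/+ and 3.74 FPKM in that labelled Ago2-/-), a membrane-bound transcription factor gene, and Syvn1 (121 and 37.5 FPKM), which encodes the ubiquitin ligase HRD1 of ER-associated degradation. Ern1, the gene of IRE1, was the highest (9.36 and 34.3 FPKM). In the close pair of Ago2-/- under thapsigargin and Ago2+/+ under DMSO, 2 of 23 were lower and 0 higher (4.67% and 4.63% of loci), and these were Syvn1 (37.5 and 61.4 FPKM) and Edem1 (26.8 and 42.5 FPKM). In both other close pairs 0 of 23 were called, where 2.0% and 2.51% of loci were higher and 1.40% and 1.88% lower.

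The loci most like the members were sought among 6278 with at least 10 FPKM in all 6 groups, by the root mean square difference from the members' mean centred log2 profile. That profile was -0.17, 0.08 and 0.29 with the Ago2+/+ label, and 0.06, 0.32 and -0.58 with the Ago2-/- label, in the same order of treatments. The standard deviation over the members ran from 0.22 to 0.54 by group, so likeness to this mean is not likeness to each member. The nearest were Kif1b, the locus of Fbxw10 and Trim16, Ncstn, Luzp1 and Gm10698, at 0.0539 to 0.0643 against a median of 0.373 over the loci. By Pearson correlation over the 6 groups, which ignores the size of the change and in which close pairs count as separate points, the leading loci were Txndc11, Selenos, Uap1, Nucb2 and Saraf, with r of at least 0.995, and 0 of 5 were shared with the first measure. A correlation of at least 0.9 was found for 296 loci (4.71%).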

How the data were processed

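RNA of mouse embryonic fibroblasts was sequenced in 18 libraries, 3 per group. The submitters' processing notes name FastQC 0.11.7, HISAT2 2.1.0, StringTie 1.3.4d, Cuffdiff 2.2.1 and the build GRCm38. The authors deposited 1 Cuffdiff table of 772485 lines, 51499 loci in 15 pairs of groups, with a pooled FPKM per locus and group. It holds no counts and no replicate values. For single-transcript loci, 32.9% to 50.8% of the low values sat on steps of a common size (tolerance 0.1 of a step, 20% without steps), so whole reads could not be recovered and the depth is unknown. Cuffdiff's own fold changes, test statistics, p-values, q-values and calls were not used. Pooled values were read by group name, and 0 other columns of sample values were used.

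Ratios were log2 of FPKM + 0.1, which understates changes of low genes. The background was the 11929 loci whose 6 groups averaged 1 FPKM or more, and a call means at least 1.5-fold. All 10 members are named, and of each other list at most 4 genes, those of the 2 highest and 2 lowest ratios in the comparison described. The members and lists were chosen with earlier results of these data known. Motifs were searched in RefSeq promoters (GRCm38.p6). For 7 of the 8 members matched, bases after the start were found in a GENCODE transcript, Dnajc3 being the exception. Protein sequences were not used here. The code that makes the calls was tested on simulated data with known folds. Python 3.11.15, pandas 2.3.3, numpy 2.4.6 and matplotlib 3.10.9 were used. Other folds, pseudocounts, filters and scalings were tried as alternatives.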

Additional observations from a re-analysis of the deposited data

Results flagged for a closer look

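In 3 of 10 members the ratio of thapsigargin to DMSO, as labelled, ran in opposite directions by labelled genotype, with both ratios past 1.5-fold, as it did in 12.6% of all loci. The difference in log2 ratio, labelled Ago2-/- minus labelled Ago2+/+, was -3.33 for Dnajb9, -2.90 for Dnajc3 and -1.64 for Hyou1. The median absolute difference over all loci was 0.598. The group labelled Ago2-/- under thapsigargin, numerator of 1 ratio, forms a close pair with that labelled Ago2+/+ under DMSO, denominator of the other. With 1 value per group the difference was not tested, nor was whether labels of genotype or treatment were exchanged.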

How the results depend on the processing

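No paired analysis was possible because the table gives 1 pooled value per group, and for the same reason leaving out a replicate was not run. Counts of members called moved with the fold asked for. Between labelled genotypes under thapsigargin they were 4 at 2-fold (17.4% of loci) and 7 at a log2 threshold of 0.32 (54.3%). Thapsigargin with the Ago2+/+ label gave 2 at 2-fold (16.8%), and with the Ago2-/- label 6 at 0.32 (58.3%). The other counts follow. At 2-fold they were 1 for tunicamycin in the groups labelled Ago2+/+ (17.9% of loci), 0 for tunicamycin and 3 for thapsigargin with the Ago2-/- label (22.0% and 18.0%), 1 and 0 between labelled genotypes under DMSO and tunicamycin (18.0% and 21.4%), and 1 in the close pair of Ago2-/- under thapsigargin and Ago2+/+ under DMSO (3.58%). At a looser threshold of 0.32 on the log2 scale they were 6 for tunicamycin and 5 for thapsigargin with the Ago2+/+ label (55.8% and 54.3%), 5 for tunicamycin in those labelled Ago2-/- (64.4%), 5 and 5 between labelled genotypes under DMSO and tunicamycin (56.2% and 63.5%), and 5 in that close pair (25.1%). In the other close pairs both folds gave 0, where 1.44% and 1.58% of loci passed 2-fold and 9.94% and 14.3% the looser threshold. Upper quartile scaling gave 2 for tunicamycin in the groups labelled Ago2-/- (41.3% of loci), where the log2 ratio of Hspa5 went from -0.575 to -0.591. It also took Manf under thapsigargin between labelled genotypes from -0.651 to -0.567, below the call, which left 4 members (33.1% of loci). Without Hspa5 the count under DMSO between labelled genotypes was 1 (33.9% of loci). Of 600 values of single members under other pseudocounts, filters and scalings, 598 kept their status as called or not called. Direction was checked only for called values, none of which reversed. Ratios near 0 can change sign under centring. FPKM without counts or replicates sets the limit: no difference here carries an error.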

Other observations

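Chaperones outside the ER were read from a list as well. Of 23 genes for cytosolic and mitochondrial chaperones, 22 passed the filter, and the widest ratios were those of the small heat shock proteins Hspb1 and Hspb8. Hspb1 was at 0.135, 108 and 65.2 FPKM (DMSO, tunicamycin, thapsigargin) with the Ago2+/+ label, and at 108, 56.1 and 0.0687 FPKM with the Ago2-/- label. Hspb8 was listed at 0 under DMSO in the group labelled Ago2+/+ and stood at 38.0 and 43.4 FPKM under tunicamycin and thapsigargin, with 36.8, 41.0 and 0.0298 FPKM in those labelled Ago2-/-. Both were near 0 in the close pair of Ago2-/- under thapsigargin and Ago2+/+ under DMSO, where Hspa5, at 3677 and 4808 FPKM, had its lowest levels and Dnajb9, at 9.05 and 9.86 FPKM, stood below its other 4 groups. In that pair 0 of 22 genes of the list were called, where 4.67% of loci were lower and 4.63% higher, with a median log2 ratio of 0.03, against -0.32 for the 10 ER chaperones. Between labelled genotypes under thapsigargin 4 of 22 were lower, near the share of all loci (17.7%), and 1 was higher, where 14.9% of loci were. The higher gene was Hspa4l, at 27.8 FPKM in the group labelled Ago2+/+ and 78.6 FPKM in that labelled Ago2-/-.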
